A study of Mus musculus with 8 samples.

Results

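Ribosome biogenesis and nucleolar genes, 40 named genes of RNA polymerase I, of the small nucleolar RNA-protein complexes and of subunit assembly, were followed in activated mouse CD8+ T cells. They were found by their symbols in the deposited log-scale table and joined to the deposited counts by gene ID, which gave 40 of the 45777 genes of the count table. All 40 were abundant enough to be tested, among 16750 genes tested. They were listed by function, with no threshold on these values, but with earlier results of these data known. The shares below thus describe the list and are not a test of genes chosen blind.

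The cells were primary CD8+ T cells from lymph nodes and spleens of C57BL/6 mice, stimulated through CD3 and CD28 and held for 48 h with EnPGC-1, with SGC-CBP30, with Ctrl PIP or with the vehicle DMSO. Each group had 2 libraries, and all 8 libraries shared the strain, the stimulation and the time. SGC-CBP30 is an inhibitor of the bromodomains of the histone acetyltransferases CBP and p300, EnPGC-1 and Ctrl PIP are named here by their labels only, and the labels give no dose for any compound, so doses could not be matched. Whether the 2 libraries of a group stand for 2 animals, 2 cultures or 1 pool is not in the labels, and the p-values below thus measure a spread between libraries that may be technical. Only activated cells were sampled, so the resting level of these genes is not known.

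Ribosomes are built in the nucleolus. RNA polymerase I makes a long precursor RNA there, the box C/D and box H/ACA complexes guide its methylation and pseudouridylation, and a large set of assembly factors cut, fold and load it with ribosomal proteins on separate routes to the small (40S) and the large (60S) subunit. T cells enlarge their nucleoli when they are activated, since growth before division needs new ribosomes, and the transcription factor MYC is a known inducer of these genes.

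Total counts ranged from 38890043 to 55491261 per library. Levels are CPM, which scales the counts of a library to 1000000 after its size was adjusted by TMM, edgeR's normalization. The 7 CD8 T cell markers Cd8a, Cd8b1, Cd3e, Cd3d, Cd3g, Trac and Cd2 summed to between 3330 and 4820 CPM in every library, with none at 0. Sums of other markers were small: 7 B cell markers gave 58.1 and 47.0 CPM with EnPGC-1, 24.0 and 19.2 with SGC-CBP30, 40.4 and 25.5 with Ctrl PIP, and 55.9 and 42.4 with DMSO. The 6 myeloid markers gave 12.9 and 3.32 CPM with EnPGC-1, 3.07 and 3.43 with SGC-CBP30, 6.48 and 6.63 with Ctrl PIP, and 12.4 and 8.95 with DMSO. Cd4 with Foxp3 gave 24.2 and 7.87 CPM with EnPGC-1, 10.6 and 10.2 with SGC-CBP30, 8.56 and 9.31 with Ctrl PIP, and 23.6 and 4.74 with DMSO. Each of these sums was highest in the first libraries of EnPGC-1 and DMSO, and so differed within these groups. The 3 NK cell markers Klre1, Klrb1c and Ncr1 gave 1.53 and 2.38 CPM with EnPGC-1 and 1.07 and 2.69 CPM with SGC-CBP30, against 5.82 and 7.75 CPM with Ctrl PIP and 4.87 and 8.0 CPM with DMSO, and so split the libraries into the same 2 sets of 4 as many of the genes below. Of the defining markers of monocytes and NK cells, Cd14 and Ncr1 were each at 0 in 5 of the 8 libraries, while Itgax, Lyz2, Itgam and Klre1 were at 0 in none. The part of these other cells in the results was not tested.

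In the 8 libraries the levels of most of these genes were lower with EnPGC-1 and with SGC-CBP30 than with Ctrl PIP. Their sum, and most of them singly, were highest in the second DMSO library. Summed over the 40 genes, the levels were 4401 and 5791 CPM with EnPGC-1 and 4929 and 5751 CPM with SGC-CBP30, against 7642 and 8258 CPM with Ctrl PIP and 5174 and 9528 CPM with DMSO. Without Ncl and Npm1, the genes with the highest CPM (not per length), the sum was 2528 and 2210 CPM with EnPGC-1 and 2295 and 2401 CPM with SGC-CBP30, against 3742 and 4006 CPM with Ctrl PIP and 2878 and 4545 CPM with DMSO. The 4 libraries of EnPGC-1 and SGC-CBP30 then all lay below the 4 libraries of Ctrl PIP and DMSO. For 22 of the 40 genes taken singly, each of the 4 libraries of EnPGC-1 and SGC-CBP30 was below each of the 4 libraries of Ctrl PIP and DMSO, against 3.73% of all genes tested. The number was 28 without EnPGC-1 replicate 1, 25 without EnPGC-1 replicate 2, 34 without DMSO replicate 1, 23 without DMSO replicate 2 and 35 without both DMSO libraries, against 5.86%, 6.33%, 14.7%, 4.26% and 15.9% of all genes. These are bulk libraries, in which fewer cells that express a gene and less of its RNA per cell cannot be told apart.

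**Figure D1:**
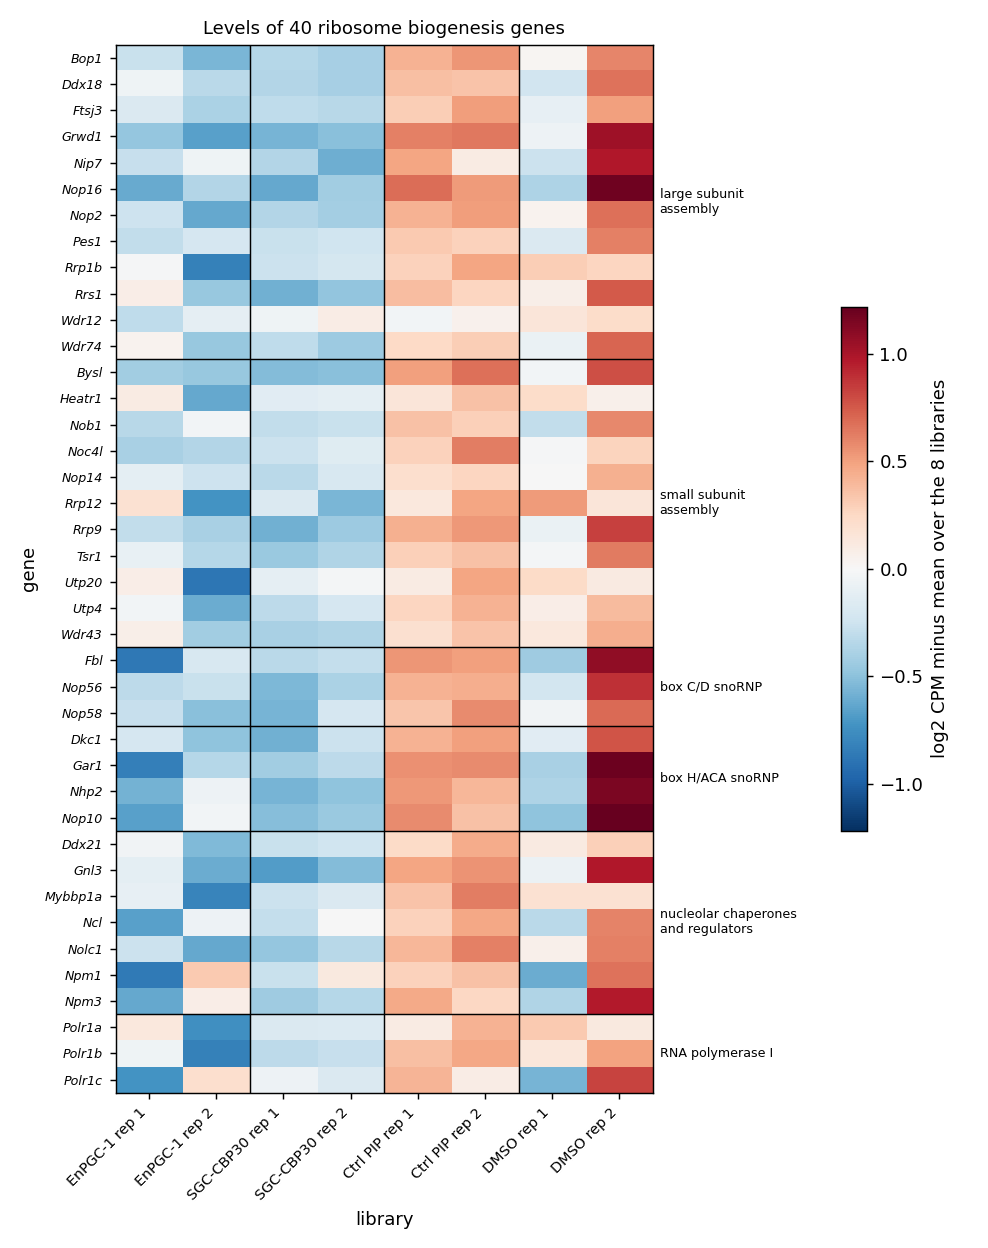
Levels of the 40 genes (rows, by role) in the 8 libraries (columns), as log2 CPM minus the gene's mean over the 8 libraries; red is above and blue below that mean. The 4 columns of EnPGC-1 and SGC-CBP30 are mostly blue and the columns of Ctrl PIP and of DMSO replicate 2 mostly red, while DMSO replicate 1 lies between them.

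The DMSO libraries stood apart from each other. DMSO replicate 2 was the highest library for 29 of the 40 genes, Ctrl PIP replicate 2 for 10 and DMSO replicate 1 for 1 (Rrp12). The lowest library was EnPGC-1 replicate 2 for 16 genes, EnPGC-1 replicate 1 for 12, SGC-CBP30 replicate 1 for 10 and SGC-CBP30 replicate 2 for 2. The median gene was 0.76 higher on the log2 scale in DMSO replicate 2 than in DMSO replicate 1, while the medians of the same difference were -0.22 for EnPGC-1, 0.07 for SGC-CBP30 and 0.08 for Ctrl PIP. The fold changes against DMSO below rest on 2 unlike DMSO libraries. Those of EnPGC-1, also against Ctrl PIP, rest on 2 EnPGC-1 libraries that differed by gene, from -0.96 (Utp20) to 1.18 (Npm1). Only SGC-CBP30 against Ctrl PIP uses neither group for its fold changes. The DMSO and EnPGC-1 libraries enter the spread, and so the p-values and intervals, of every comparison fitted over all 8 libraries.

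The difference within DMSO followed the length of the coding sequence. For the 8 genes with under 1000 coding bases the median log2 difference of replicate 2 from replicate 1 was 1.52 with DMSO and 0.57 with EnPGC-1, whereas it was -0.14 and -0.83 for the 6 genes with over 3000. Across the 40 genes the rank correlation of this difference with coding length was -0.757 with EnPGC-1, -0.192 with SGC-CBP30, 0.749 with Ctrl PIP and -0.825 with DMSO, a description over genes that share their libraries. Nop10, the shortest, differed by 1.72 between the DMSO libraries, and Utp20, the longest, by -0.12. The same trend was seen beyond these genes. Over 9287 genes the rank correlation of a library's deviation with transcript length was 0.466 and -0.534 in the EnPGC-1 libraries, 0.53 and 0.485 in the SGC-CBP30 libraries, -0.504 and -0.164 in the Ctrl PIP libraries, and 0.556 and -0.601 in the DMSO libraries. The cause of this trend was not tested.

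**Figure D2:**
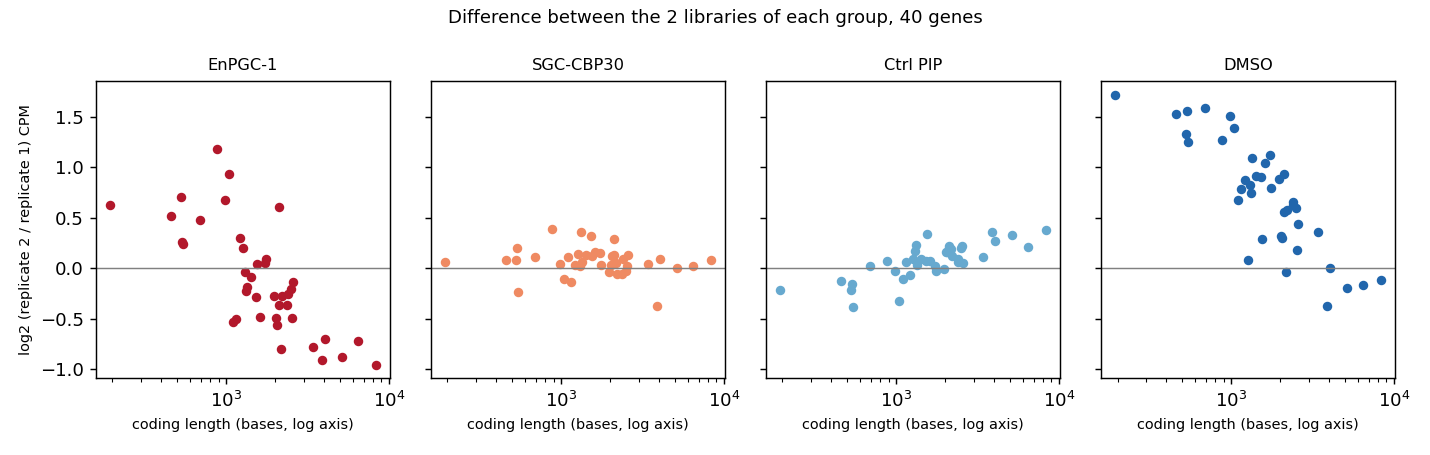
Difference between the 2 libraries of each group (log2 of replicate 2 over replicate 1, vertical axis) against coding length (bases, log axis), 1 point per gene, 40 genes a panel. The points go down with length in EnPGC-1 and DMSO, stay near 0 in SGC-CBP30, and climb in Ctrl PIP.

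Promoter sequence was searched for the E-box CACGTG, the letters bound by MYC and related factors, in a 300-base window from 250 bases before the start site to 50 after it (RefSeq, GRCm38.p6, both strands). A window was given for 35 of the 40 genes, and for 5 (Bop1, Fbl, Npm1, Rrp12, Rrs1) none was used here. CACGTG was present in 8 of the 35 (22.9%), namely Grwd1, Mybbp1a, Nop2, Pes1, Tsr1, Utp4, Utp20 and Wdr43, against 11.1% of the 11806 tested genes with a window and 8.09% of all 27025 windows. CCGGAAG, the letters bound by ETS factors, was present in 11 of the 35 (31.4%), against 18.7% of the tested genes and 9.93% of all windows. A 10-letter palindrome known as the motif of ZBTB33 was in 0 of the 35, against 1.05% of the tested genes and 0.525% of all windows. These are counts of letters, and a match does not show that a factor binds. The 4 windows below are those with CACGTG whose genes had the smallest p in EnPGC-1 against Ctrl PIP; capitals mark CACGTG, and each is written 5′ to 3′ on the strand of its gene. Nop2 is at chr6:125131633-125131932 on the plus strand, Grwd1 at chr7:45830740-45831039 on the minus strand, Mybbp1a at chr11:72441077-72441376 on the plus strand and Utp4 at chr8:106893390-106893689 on the plus strand.
Nop2: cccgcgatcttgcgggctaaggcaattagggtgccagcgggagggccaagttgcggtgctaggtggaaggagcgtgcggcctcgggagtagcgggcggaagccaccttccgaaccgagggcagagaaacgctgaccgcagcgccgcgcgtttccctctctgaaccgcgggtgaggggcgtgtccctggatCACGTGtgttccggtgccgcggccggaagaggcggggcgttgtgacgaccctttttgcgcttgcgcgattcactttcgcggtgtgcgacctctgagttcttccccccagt
Grwd1: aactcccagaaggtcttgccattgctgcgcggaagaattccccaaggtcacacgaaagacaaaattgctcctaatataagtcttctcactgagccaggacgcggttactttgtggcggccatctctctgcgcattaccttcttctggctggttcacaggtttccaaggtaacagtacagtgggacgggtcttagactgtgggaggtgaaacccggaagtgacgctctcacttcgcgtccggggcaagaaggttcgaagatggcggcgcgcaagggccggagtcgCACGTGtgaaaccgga
Mybbp1a: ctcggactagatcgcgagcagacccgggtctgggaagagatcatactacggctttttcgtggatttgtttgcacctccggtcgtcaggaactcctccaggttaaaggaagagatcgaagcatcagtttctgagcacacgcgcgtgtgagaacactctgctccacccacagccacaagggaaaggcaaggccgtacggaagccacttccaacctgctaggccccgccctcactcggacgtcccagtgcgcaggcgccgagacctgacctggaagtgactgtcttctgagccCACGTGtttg
Utp4: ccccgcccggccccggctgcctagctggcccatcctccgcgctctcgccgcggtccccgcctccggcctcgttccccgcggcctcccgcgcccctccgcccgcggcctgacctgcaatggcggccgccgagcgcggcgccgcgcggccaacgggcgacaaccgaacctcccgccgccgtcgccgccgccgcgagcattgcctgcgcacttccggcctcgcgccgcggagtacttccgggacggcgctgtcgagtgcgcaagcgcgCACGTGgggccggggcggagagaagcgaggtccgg
Counted from the start site of its window, the E-box begins 60 bases before that site in Nop2. In Grwd1, Mybbp1a and Utp4 it begins 35, 41 and 16 bases after that site. For Grwd1 the site lies inside the span of the gene (chr7:45825223-45830994). The E-box of Grwd1 is thus farther from the outer end of its gene than 35 bases. It follows an atg in the printed window, and whether it lies in coding sequence was not tested.

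The assembly of the large subunit was represented by 12 genes, and Grwd1, a WD-repeat histone and ribosomal protein binding factor, differed most among them between EnPGC-1 and Ctrl PIP. Grwd1 (chr7:45825223-45830994) had 21.0 and 18.4 CPM with EnPGC-1 and 19.6 and 20.4 CPM with SGC-CBP30, against 44.4 and 45.3 CPM with Ctrl PIP and 27.8 and 59.4 CPM with DMSO. The 4 libraries of EnPGC-1 and SGC-CBP30 lay within 3 CPM of each other and below all others, and the lower DMSO library was closer to them than to Ctrl PIP. Nop2, the methyltransferase of a cytosine in the large ribosomal RNA, had 50.4 and 39.1 CPM with EnPGC-1 and 47.1 and 45.2 CPM with SGC-CBP30, against 80.5 and 85.5 CPM with Ctrl PIP and 62.1 and 95.9 CPM with DMSO. Bop1, a scaffold of the PeBoW complex that matures the large subunit RNA, had 63.0 and 51.9 CPM with EnPGC-1 and 60.1 and 57.7 CPM with SGC-CBP30, against 102 and 111 CPM with Ctrl PIP and 77.3 and 115 CPM with DMSO. Both genes repeat the order seen for Grwd1, with no overlap between the 2 sets of 4 libraries. Ftsj3, a methyltransferase of the same route, had 82.0 and 71.1 CPM with EnPGC-1 and 75.1 and 73.7 CPM with SGC-CBP30, against 114 and 132 CPM with Ctrl PIP and 86.9 and 131 CPM with DMSO.

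Bop1 works in 1 complex with Pes1 and Wdr12, and the 3 genes did not keep one ratio. Pes1 had 79.5 and 84.9 CPM with EnPGC-1 and 81.0 and 82.6 CPM with SGC-CBP30, against 122 and 119 CPM with Ctrl PIP and 86.7 and 150 CPM with DMSO. Wdr12 had 62.9 and 72.0 CPM with EnPGC-1 and 75.2 and 83.0 CPM with SGC-CBP30, against 75.9 and 80.8 CPM with Ctrl PIP and 86.2 and 91.0 CPM with DMSO. Wdr12 was the flattest of the 40 genes between SGC-CBP30 and Ctrl PIP, whose libraries overlapped, and it was the 1 gene whose log2 fold change there was not below 0 (0.01, SE 0.17). The ratio of Wdr12 to Bop1 in CPM was 0.997 and 1.39 with EnPGC-1 and 1.25 and 1.44 with SGC-CBP30, against 0.744 and 0.726 with Ctrl PIP and 1.12 and 0.79 with DMSO.

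Rrs1, which in yeast helps to bring the 5S particle into the large subunit, had 37.0 and 25.5 CPM with EnPGC-1 and 23.3 and 25.1 CPM with SGC-CBP30, against 45.3 and 41.9 CPM with Ctrl PIP and 36.7 and 58.7 CPM with DMSO. Its SGC-CBP30 libraries were below all 6 others, while its higher EnPGC-1 library lay just above the lower DMSO library. Nip7, a 60S biogenesis factor, had 32.4 and 38.1 CPM with EnPGC-1 and 30.7 and 26.0 CPM with SGC-CBP30, against 55.0 and 42.1 CPM with Ctrl PIP and 32.8 and 77.7 CPM with DMSO. Nop16, a further factor of the 60S route, had 19.8 and 23.7 CPM with EnPGC-1 and 19.6 and 22.6 CPM with SGC-CBP30, against 48.6 and 43.4 CPM with Ctrl PIP and 23.4 and 69.0 CPM with DMSO. For Nip7 and Nop16 the first DMSO library was as low as the EnPGC-1 libraries. Ddx18, a nucleolar RNA helicase, had 79.1 and 65.4 CPM with EnPGC-1 and 64.1 and 62.3 CPM with SGC-CBP30, against 106 and 105 CPM with Ctrl PIP and 70.1 and 130 CPM with DMSO. Wdr74, a WD-repeat factor of 60S assembly, had 34.3 and 24.1 CPM with EnPGC-1 and 26.9 and 24.4 CPM with SGC-CBP30, against 39.4 and 41.0 CPM with Ctrl PIP and 31.5 and 54.4 CPM with DMSO. Rrp1b, a nucleolar protein related to a yeast 60S factor, had 41.9 and 24.0 CPM with EnPGC-1 and 35.3 and 36.5 CPM with SGC-CBP30, against 51.6 and 59.0 CPM with Ctrl PIP and 52.2 and 50.8 CPM with DMSO. All 3 were below Ctrl PIP in each EnPGC-1 and SGC-CBP30 library, and Rrp1b was also below both DMSO libraries, which were alike for it.

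The assembly of the small subunit was represented by 11 genes. Bysl, a late 40S assembly factor, had 22.9 and 22.3 CPM with EnPGC-1 and 21.2 and 21.5 CPM with SGC-CBP30, against 43.4 and 48.9 CPM with Ctrl PIP and 29.9 and 52.98 CPM with DMSO. Rrp9, the protein that marks the U3 small nucleolar RNA complex, had 28.5 and 26.7 CPM with EnPGC-1 and 23.4 and 25.7 CPM with SGC-CBP30, against 47.4 and 50.4 CPM with Ctrl PIP and 33.2 and 62.3 CPM with DMSO. Noc4l, whose yeast counterpart acts with that of Nop14 in the export of the 40S precursor, had 48.2 and 49.6 CPM with EnPGC-1 and 52.8 and 57.2 CPM with SGC-CBP30, against 77.3 and 97.7 CPM with Ctrl PIP and 62.8 and 76.6 CPM with DMSO. In all 3 genes the 4 libraries of EnPGC-1 and SGC-CBP30 were below the other 4, and in Noc4l both Ctrl PIP libraries were also above both DMSO libraries. Nop14 had 54.4 and 49.5 CPM with EnPGC-1 and 47.0 and 51.4 CPM with SGC-CBP30, against 68.0 and 70.5 CPM with Ctrl PIP and 58.8 and 79.7 CPM with DMSO, and its libraries fell into the same 2 sets.

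Tsr1, a GTPase-like factor that holds late 40S precursors, had 58.1 and 48.6 CPM with EnPGC-1 and 45.1 and 47.9 CPM with SGC-CBP30, against 75.8 and 79.2 CPM with Ctrl PIP and 61.0 and 96.1 CPM with DMSO. Wdr43, a subunit of the early processome, had 123 and 87.1 CPM with EnPGC-1 and 88.9 and 90.9 CPM with SGC-CBP30, against 134 and 149 CPM with Ctrl PIP and 128 and 159 CPM with DMSO. Its first EnPGC-1 library was close to the lower DMSO library, while the other EnPGC-1 library and both SGC-CBP30 libraries lay together. Utp4, another subunit of the processome, had 48.4 and 32.6 CPM with EnPGC-1 and 39.7 and 43.0 CPM with SGC-CBP30, against 59.5 and 66.3 CPM with Ctrl PIP and 52.4 and 64.7 CPM with DMSO. Nob1, the nuclease that cuts the end of the 18S RNA, had 35.1 and 43.3 CPM with EnPGC-1 and 36.0 and 36.7 CPM with SGC-CBP30, against 56.7 and 54.2 CPM with Ctrl PIP and 36.0 and 66.2 CPM with DMSO. Utp4 separated the 2 sets of 4 libraries, and Nob1 did not, since its first DMSO library was as low as SGC-CBP30. Rrp12, Utp20 and Heatr1, large proteins of the early processome and of export, were higher in the first than in the second DMSO library, unlike the shorter genes of the small subunit. Utp20 had 62.0 and 31.8 CPM with EnPGC-1 and 54.3 and 57.4 CPM with SGC-CBP30, against 62.8 and 81.8 CPM with Ctrl PIP and 68.6 and 63.2 CPM with DMSO. Rrp12 had 57.9 and 30.8 CPM with EnPGC-1 and 44.9 and 34.6 CPM with SGC-CBP30, against 55.6 and 71.1 CPM with Ctrl PIP and 73.0 and 56.3 CPM with DMSO. Heatr1 had 89.2 and 54.1 CPM with EnPGC-1 and 75.9 and 77.0 CPM with SGC-CBP30, against 92.4 and 107 CPM with Ctrl PIP and 97.4 and 86.9 CPM with DMSO. In all 3 the second EnPGC-1 library was the lowest of the 8 and the first reached or nearly reached the control libraries. Utp20 still separated the 2 sets of 4 libraries, by a narrow margin, and Rrp12 and Heatr1 did not.

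**Figure D3:**
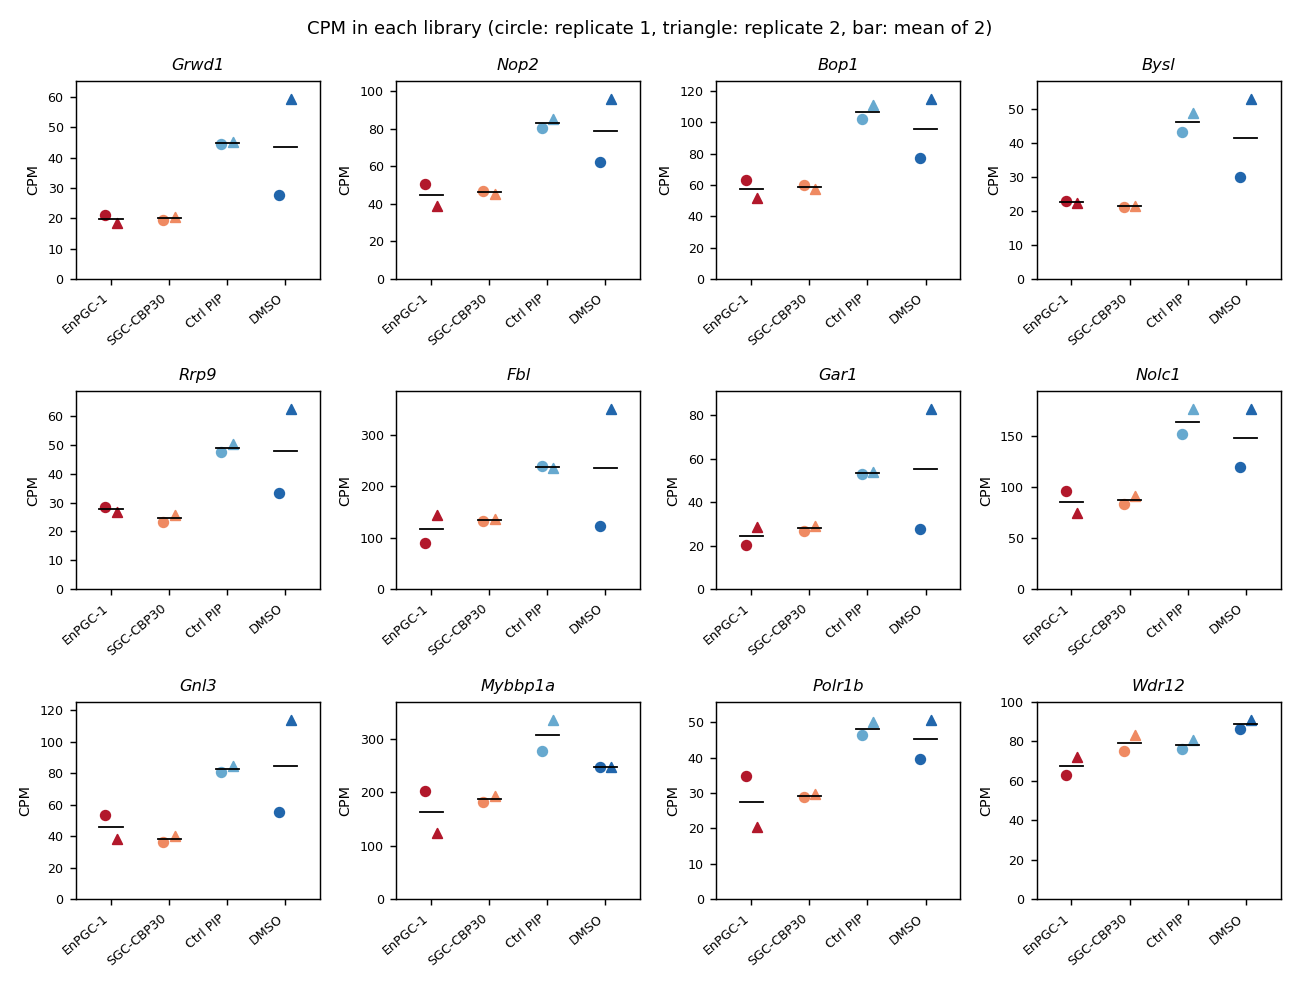
CPM of 12 of the genes in each library, with a circle for replicate 1, a triangle for replicate 2 and a bar for the mean of 2. The EnPGC-1 and SGC-CBP30 points lie below the Ctrl PIP points in all panels except that of Wdr12, and the DMSO points are closest to each other for Mybbp1a and Wdr12.

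The box C/D complexes, which methylate ribosomal RNA, were represented by Fbl, the methyltransferase, and by the core proteins Nop56 and Nop58. Fbl had 90.4 and 145 CPM with EnPGC-1 and 132 and 136 CPM with SGC-CBP30, against 240 and 235 CPM with Ctrl PIP and 123 and 350 CPM with DMSO. Nop56 had 149 and 154 CPM with EnPGC-1 and 127 and 142 CPM with SGC-CBP30, against 250 and 253 CPM with Ctrl PIP and 159 and 345 CPM with DMSO. Nop58 had 96.9 and 82.7 CPM with EnPGC-1 and 79.6 and 102 CPM with SGC-CBP30, against 149 and 175 CPM with Ctrl PIP and 114 and 190 CPM with DMSO. All 3 were lower with EnPGC-1 and with SGC-CBP30 than in either Ctrl PIP library, and only Fbl overlapped with DMSO.

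The box H/ACA complexes, which turn uridines of ribosomal RNA into pseudouridines and include telomerase RNA among their partners, were represented by the enzyme Dkc1 and its small partners Gar1, Nhp2 and Nop10. Gar1 had 20.4 and 28.5 CPM with EnPGC-1 and 27.0 and 29.1 CPM with SGC-CBP30, against 53.2 and 54.0 CPM with Ctrl PIP and 27.5 and 82.8 CPM with DMSO. Dkc1 had 87.6 and 71.8 CPM with EnPGC-1 and 67.2 and 84.1 CPM with SGC-CBP30, against 136 and 143 CPM with Ctrl PIP and 91.9 and 172 CPM with DMSO. Nop10 had 30.7 and 47.3 CPM with EnPGC-1 and 33.9 and 35.5 CPM with SGC-CBP30, against 72.6 and 62.3 CPM with Ctrl PIP and 34.5 and 113 CPM with DMSO. Nhp2 had 43.2 and 62.0 CPM with EnPGC-1 and 43.5 and 46.0 CPM with SGC-CBP30, against 92.9 and 85.2 CPM with Ctrl PIP and 49.8 and 143 CPM with DMSO. Against Ctrl PIP no library of the 4 genes overlapped with EnPGC-1 or SGC-CBP30, whereas the first DMSO library of the 3 short genes lay among them.

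Among 7 nucleolar chaperones and regulators, Npm1, a histone and ribosomal protein chaperone, was by far the most abundant per length of the 40 genes, at a mean of 1150 CPM per kilobase of transcript, against 6.83 for Utp20, the least abundant. Npm1 had 979 and 2220 CPM with EnPGC-1 and 1480 and 1940 CPM with SGC-CBP30, against 2170 and 2280 CPM with Ctrl PIP and 1170 and 2820 CPM with DMSO. Its EnPGC-1 libraries spanned most of the range of the 8 libraries, so its mean says little, and its processed copies in the genome may share counts with it. Ncl, nucleolin, had 894 and 1360 CPM with EnPGC-1 and 1160 and 1410 CPM with SGC-CBP30, against 1720 and 1970 CPM with Ctrl PIP and 1130 and 2160 CPM with DMSO. Nolc1, a chaperone of small nucleolar complexes, had 96.2 and 74.9 CPM with EnPGC-1 and 83.3 and 91.1 CPM with SGC-CBP30, against 152 and 176 CPM with Ctrl PIP and 120 and 176 CPM with DMSO. Gnl3, nucleostemin, a nucleolar GTPase of growing cells, had 53.6 and 38.2 CPM with EnPGC-1 and 36.1 and 40.3 CPM with SGC-CBP30, against 80.9 and 84.8 CPM with Ctrl PIP and 55.3 and 114 CPM with DMSO. Nolc1 and Gnl3 showed no overlap between the 2 sets of 4 libraries, and Ncl overlapped with DMSO. Mybbp1a, a nucleolar regulator of transcription, had 203 and 125 CPM with EnPGC-1 and 182 and 193 CPM with SGC-CBP30, against 278 and 336 CPM with Ctrl PIP and 248 and 248 CPM with DMSO. Its DMSO libraries were alike, and its order from low to high was EnPGC-1 and SGC-CBP30 together, DMSO, and Ctrl PIP. Ddx21, an RNA helicase, had 243 and 172 CPM with EnPGC-1 and 207 and 211 CPM with SGC-CBP30, against 293 and 341 CPM with Ctrl PIP and 270 and 306 CPM with DMSO. Npm3, a small relative of Npm1, had 49.4 and 80.6 CPM with EnPGC-1 and 56.5 and 59.6 CPM with SGC-CBP30, against 105 and 90.6 CPM with Ctrl PIP and 59.1 and 149 CPM with DMSO. Ddx21 separated the 2 sets of 4 libraries, and for Npm3 the first DMSO library lay among the EnPGC-1 libraries.

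RNA polymerase I itself was represented by its large subunits Polr1a and Polr1b and by Polr1c, a subunit shared with RNA polymerase III. Polr1b had 34.8 and 20.3 CPM with EnPGC-1 and 28.8 and 29.7 CPM with SGC-CBP30, against 46.4 and 49.9 CPM with Ctrl PIP and 39.6 and 50.7 CPM with DMSO. Polr1a had 69.4 and 37.7 CPM with EnPGC-1 and 56.1 and 56.3 CPM with SGC-CBP30, against 67.8 and 85.2 CPM with Ctrl PIP and 79.0 and 68.9 CPM with DMSO. Polr1c had 29.9 and 57.1 CPM with EnPGC-1 and 47.5 and 43.9 CPM with SGC-CBP30, against 66.1 and 52.7 CPM with Ctrl PIP and 33.6 and 88.0 CPM with DMSO. Polr1b alone of the 3 separated the 2 sets of 4 libraries, and in EnPGC-1 the long Polr1a and the short Polr1c were ordered oppositely between the 2 libraries.

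In EnPGC-1 against DMSO, the log2 fold changes of all 40 genes were below 0, from -1.17 (Gar1) to -0.32 (Npm1) with a median of -0.60, while 49.8% of all genes tested were below 0, with a median of 0.00. Both EnPGC-1 libraries were below both DMSO libraries for 23 of the 40, against 9.24% of all genes tested. In edgeR's quasi-likelihood test 0 of the 40 passed an adjusted p of 0.05, as did 0% of all genes tested, and every one of the 40 had an adjusted p of 0.998. At an unadjusted p under 0.05, 11 of the 40 were lower, against 1.81% of all genes tested, and DESeq2's Wald test called 0 of the 40 and 0.131% of all genes. Grwd1 averaged 19.7 ± 1.83 CPM with EnPGC-1 and 43.6 ± 22.3 CPM with DMSO (SD, n = 2 each), a log2 fold change of -1.15 with a 95% interval of -1.98 to -0.31. Nolc1 differed by -0.79 (-1.39 to -0.18), Bop1 by -0.74 (-1.32 to -0.17), Bysl by -0.88 (-1.55 to -0.20), Nop2 by -0.82 (-1.43 to -0.21) and Rrp9 by -0.79 (-1.51 to -0.07). By role the median ran from -0.48 for RNA polymerase I and -0.51 for the small subunit to -0.76 for box C/D and -0.90 for box H/ACA. Without DMSO replicate 2 the median of the 40 was -0.25, and without DMSO replicate 1 it was -0.89. Without replicate 1 of both groups 32 of the 40 were called lower, against 4.22% of 17007 genes, with a median of -1.01, and without replicate 2 of both 0 were called, against 0% of 17411 genes, with a median of -0.18; the lone library of each group was assumed to vary like those of SGC-CBP30 and Ctrl PIP.

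In SGC-CBP30 against DMSO, all 40 genes were again below 0, from -1.15 (Gnl3) to -0.16 (Wdr12) with a median of -0.71, against 52.7% of all genes tested and a median of -0.03. Both SGC-CBP30 libraries were below both DMSO libraries for 32 of the 40, against 14.4% of all genes tested. The quasi-likelihood test called 0 of the 40 and 0% of all genes, with a smallest adjusted p of 0.943 among the 40. At an unadjusted p under 0.05, 16 were lower, against 2.82% of all genes, and DESeq2 called 0 of the 40 and 0.442% of all genes. Gnl3 averaged 38.2 ± 2.97 CPM with SGC-CBP30 and 84.6 ± 41.4 CPM with DMSO (SD, n = 2 each), a log2 fold change of -1.15 (-2.01 to -0.29). Bysl differed by -0.96 (-1.64 to -0.28), Rrs1 by -0.98 (-1.67 to -0.28) Rrp9 by -0.96 (-1.68 to -0.24), Grwd1 by -1.13 (-1.96 to -0.30) and Nop2 by -0.77 (-1.39 to -0.16). Without DMSO replicate 2 the median was -0.30. Without replicate 1 of both EnPGC-1 and DMSO 33 of the 40 were called lower, against 19% of all genes, and without replicate 2 of both 0 were, against 0.0632% of all genes.

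Against Ctrl PIP, whose libraries were alike, the same genes were lower with EnPGC-1. All 40 log2 fold changes were below 0, from -1.19 (Grwd1) to -0.22 (Wdr12) with a median of -0.70, against 45.9% of all genes tested and a median of 0.05. Both EnPGC-1 libraries were below both Ctrl PIP libraries for 36 of the 40, against 21.7% of all genes tested; the exceptions were Npm1, Rrp12, Polr1a and Polr1c. The quasi-likelihood test called 0 of the 40 and 0% of all genes, with an adjusted p of 0.812 at the smallest, and 15 of the 40 were lower at an unadjusted p under 0.05, against 2.77% of all genes. DESeq2 called 0 of the 40, with a smallest adjusted p of 0.0509, and 0.293% of all genes. Noc4l, which had the smallest p in edgeR, averaged 48.9 ± 1.02 CPM with EnPGC-1 and 87.5 ± 14.5 CPM with Ctrl PIP (SD, n = 2 each), a log2 fold change of -0.84 (-1.32 to -0.36). Grwd1 differed by -1.19 (-2.02 to -0.35), Bysl by -1.03 (-1.71 to -0.35), Nolc1 by -0.94 (-1.55 to -0.33), Bop1 by -0.89 (-1.47 to -0.32) and Nop2 by -0.89 (-1.50 to -0.28). Leaving out any 1 library kept the median between -0.85 and -0.64. Without replicate 1 of both EnPGC-1 and DMSO 7 of the 40 were called lower, against 0.212% of all genes, and without replicate 2 of both 26 were, against 15.8%.

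SGC-CBP30 against Ctrl PIP was the comparison with the least spread within groups: the coefficient of biological variation of its 4 libraries was 0.159, against 0.562 for the 4 libraries of EnPGC-1 and DMSO. Of the 40 genes 39 were below 0, from -1.17 (Grwd1) upward with a median of -0.73, against 48.5% of all genes tested and a median of 0.01. In 39 of the 40 both SGC-CBP30 libraries were below both Ctrl PIP libraries, against 30.2% of all genes tested. With the spread estimated over all 8 libraries the quasi-likelihood test called 0 of the 40 and 0% of all genes (smallest adjusted p among the 40, 0.871), DESeq2 called 0 of the 40 and 0.257% of all genes, and 22 were lower at an unadjusted p under 0.05, against 2.56% of all genes. Bysl averaged 21.3 ± 0.19 CPM with SGC-CBP30 and 46.2 ± 3.86 CPM with Ctrl PIP (SD, n = 2 each), a log2 fold change of -1.11 (-1.79 to -0.43). Grwd1 differed by -1.17 (SE 0.35), Nolc1 by -0.91 (-1.52 to -0.31), Bop1 by -0.86 (-1.43 to -0.28), Nop2 by -0.85 (-1.46 to -0.23) and Noc4l by -0.67 (-1.15 to -0.19). When the test used the 4 libraries of this comparison alone, 33 of the 40 were called lower, against 8.51% of 15660 genes tested, with adjusted p from 0.00893 to 0.0377 and log2 fold changes of -1.17 to -0.50. In that fit Grwd1 stood at -1.17 (SE 0.11, adjusted p 0.00893), Gnl3 at -1.12 (SE 0.11, adjusted p 0.0101), Nop16 at -1.13 (SE 0.13, adjusted p 0.0113) and Bysl at -1.12 (SE 0.12, adjusted p 0.0113), the 4 lowest log2 fold changes, all by edgeR's quasi-likelihood test with Benjamini-Hochberg adjustment. Ncl, Npm1, Wdr12, Polr1a, Polr1c, Utp20 and Heatr1 were not called, with Ncl at -0.53 (adjusted p 0.0677) and Heatr1 at -0.39 (adjusted p 0.0611). The trend with transcript length over 9287 genes differed in sign between these groups. It was 0.53 and 0.485 in the SGC-CBP30 libraries and -0.504 and -0.164 in the Ctrl PIP libraries. The fit of these 4 libraries was not repeated with offsets for length, so the part of this trend in the calls was not tested. The fits of the 4 libraries of the other 5 comparisons called 0 genes each. Without replicate 1 of both EnPGC-1 and DMSO 33 of the 40 were called lower in SGC-CBP30 against Ctrl PIP, against 7.17% of all genes, and without replicate 2 of both 32 were, against 5.84%.

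**Figure D4:**
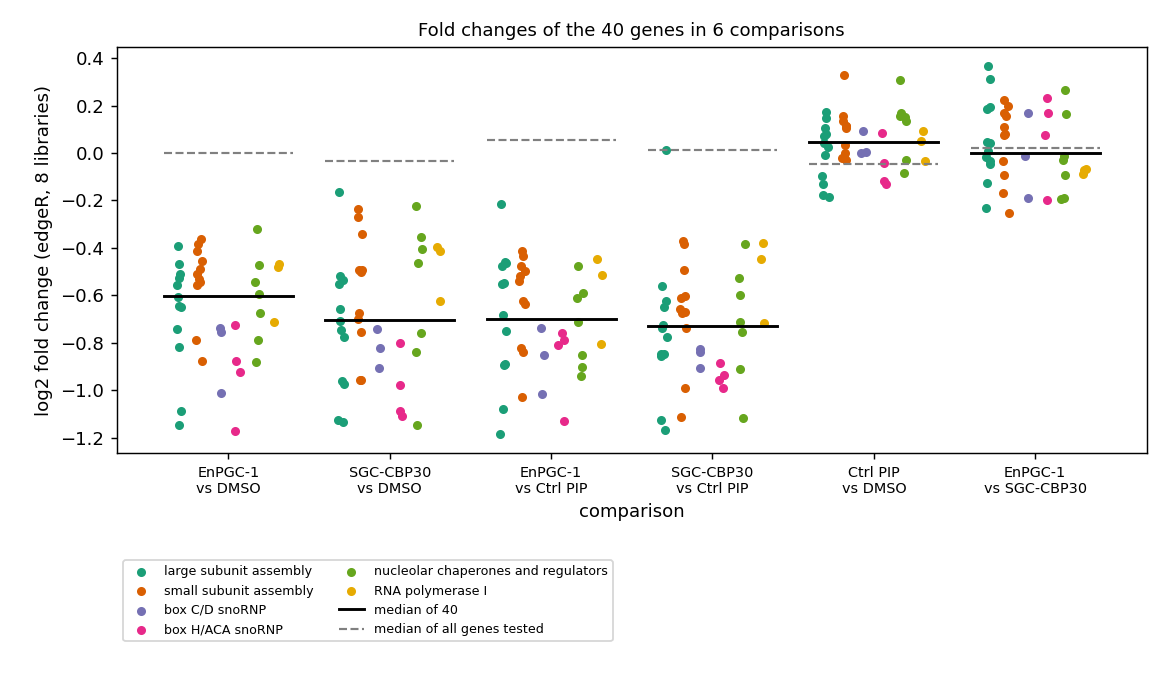
Log2 fold changes of the 40 genes (points, coloured by role) in 6 comparisons, with the median of the 40 (black line) and of all genes tested (dashed grey line). In the 4 comparisons of EnPGC-1 or SGC-CBP30 with DMSO or Ctrl PIP the medians of the 40 lie between -0.73 and -0.60, and in the other 2 they lie at 0.04 and 0.00.

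Ctrl PIP against DMSO showed no common direction in the fit used so far. Of the 40 genes 15 were below 0, against 58.4% of all genes tested, with a range of -0.19 to 0.33 and a median of 0.04, against a median of -0.05 over all genes. The number below 0 was 9 with the length and GC offsets described below, 6 with a replicate block and 6 on the deposited log2 values. The medians of the 40 were then 0.06, 0.10 and 0.06, against -0.04, 0.01 and -0.01 over all genes. Both Ctrl PIP libraries were above both DMSO libraries for 2 genes, Noc4l and Mybbp1a, against 8.34% of all genes, and below them for 1, Wdr12, against 7.83%. The quasi-likelihood test called 0 of the 40 and 0% of all genes, 0 of the 40 had an unadjusted p under 0.05, against 0.597% of all genes, and DESeq2 called 0 of the 40 and 0.0119% of all genes. Noc4l differed by 0.33 (-0.15 to 0.81), Mybbp1a by 0.31 (-0.33 to 0.95), Ftsj3 by 0.17 (-0.40 to 0.75), Bop1 by 0.15 (-0.42 to 0.72), Nolc1 by 0.15 (-0.45 to 0.75) and Wdr12 by -0.18 (-0.59 to 0.24). The median depended on which DMSO library was used: it was 0.49 without DMSO replicate 2 and -0.23 without DMSO replicate 1. Without replicate 2 of both EnPGC-1 and DMSO 16 of the 40 were called higher, against 6.69% of all genes. Whether Ctrl PIP and DMSO cells differ in these genes cannot be read from these 4 libraries.

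EnPGC-1 and SGC-CBP30 were also set against each other, at doses the labels do not give. The log2 fold changes ran from -0.25 to 0.37 with a median of 0.00, and 20 of the 40 were below 0, against 47.1% of all genes tested. The quasi-likelihood test called 0 of the 40 and 0% of all genes, 0 had an unadjusted p under 0.05, against 2.03% of all genes, and DESeq2 called 0 of the 40 and 0.107% of all genes. The 95% intervals of the 40 genes together reached from -1.36 to 1.42, with a median width of 0.72 to each side, and all of them included 0. Both EnPGC-1 libraries were above both SGC-CBP30 libraries for 7 genes (Nop56, Rrs1, Rrp9, Ddx18, Tsr1, Bysl, Nip7), against 13.2% of all genes, and below them for 2 (Wdr12, Noc4l), against 14.7%. Rrs1 differed by 0.37 (-0.32 to 1.06), Nip7 by 0.31 (-0.65 to 1.27), Wdr43 by 0.22 (-0.33 to 0.77), Tsr1 by 0.20 (-0.40 to 0.80), Noc4l by -0.17 (-0.65 to 0.31) and Wdr12 by -0.23 (-0.65 to 0.19).

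Comparisons with a common group share its libraries, whereas EnPGC-1 against Ctrl PIP and SGC-CBP30 against DMSO have no library in common. All 40 genes were below 0 in both of these, against 32.3% of all genes tested. Across the 40 genes their log2 fold changes had a Pearson correlation of 0.545 and a Spearman correlation of 0.498, while over all genes tested the Pearson correlation was -0.118. For the other pair with no shared library, EnPGC-1 against DMSO and SGC-CBP30 against Ctrl PIP, 39 of the 40 were below 0 in both, against 36.8% of all genes, and the Pearson correlation was 0.827 across the 40 and 0.279 over all genes. These correlations are across genes, which are not independent replicates. Grwd1 stood at -1.15, -1.13, -1.19 and -1.17 in EnPGC-1 against DMSO, SGC-CBP30 against DMSO, EnPGC-1 against Ctrl PIP and SGC-CBP30 against Ctrl PIP, and Wdr12 at -0.39, -0.16, -0.22 and 0.01.

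**Figure D5:**
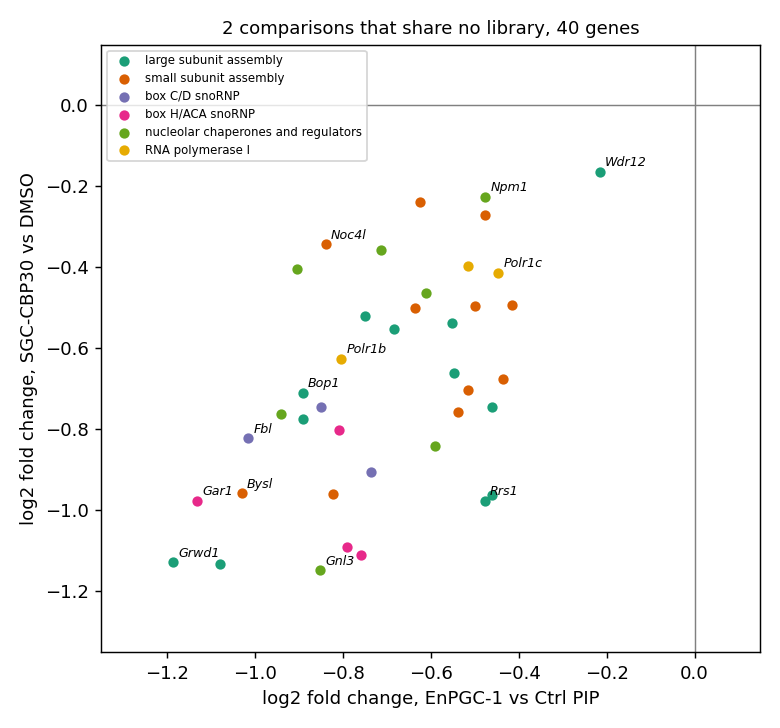
Log2 fold changes of the 40 genes in EnPGC-1 against Ctrl PIP (horizontal) and SGC-CBP30 against DMSO (vertical), 1 point per gene, coloured by role. All 40 points lie in the lower left quadrant, with Grwd1 at -1.19 and -1.13 and Wdr12 at -0.22 and -0.16.

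Since the difference between libraries went with length, the fits were repeated with offsets for transcript length and GC content in each library. The median of the 40 was then -0.58 in EnPGC-1 against DMSO, -0.66 in SGC-CBP30 against DMSO, -0.64 in EnPGC-1 against Ctrl PIP and -0.75 in SGC-CBP30 against Ctrl PIP, and 40, 39, 40 and 39 of the 40 genes were below 0. In Ctrl PIP against DMSO the median was 0.06, with 9 of the 40 below 0. In EnPGC-1 against SGC-CBP30 it was 0.07, with 14 of the 40 below 0. With the offsets Fbl stood at -0.80 in EnPGC-1 against Ctrl PIP and Polr1a at -0.78, against -1.02 and -0.52 without them.

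Other genes of the pathway that are not among the 40 gave smaller values of the same sign. Of 42 further genes of 40S assembly, 41, 41, 39 and 41 were below 0 in EnPGC-1 against DMSO, SGC-CBP30 against DMSO, EnPGC-1 against Ctrl PIP and SGC-CBP30 against Ctrl PIP, with medians of -0.38, -0.41, -0.40 and -0.48. Of 46 further genes of 60S assembly, 42, 45, 42 and 42 were below 0, with medians of -0.38, -0.49, -0.41 and -0.48. Of 12 genes of the RNA exosome, which trims ribosomal RNA ends, 12, 11, 12 and 12 were below 0, with medians of -0.55, -0.67, -0.42 and -0.55. None of these genes passed an adjusted p of 0.05 in edgeR, and at an unadjusted p under 0.05 the numbers lower in the 4 comparisons were 1, 7, 8 and 10 of the 42, 2, 14, 4 and 15 of the 46, and 0, 3, 1 and 2 of the 12, against 1.81%, 2.82%, 2.77% and 2.56% of all genes tested. Pno1, a 40S assembly factor, had 28.9 and 26.8 CPM with EnPGC-1 and 21.9 and 27.6 CPM with SGC-CBP30, against 44.6 and 52.4 CPM with Ctrl PIP and 35.0 and 52.7 CPM with DMSO, and so separated the same 2 sets of 4 libraries.

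The factors that recruit RNA polymerase I, taken with further subunits, had medians nearer to 0 but wide ranges. Of 14 such factors and further subunits, 11 were matched and tested, and 7, 9, 6 and 9 of the 11 were below 0 in the same 4 comparisons, with medians of -0.20, -0.33, -0.14 and -0.19 and 0 called. The lowest values were -1.06, -1.09, -0.99 and -0.92, and the highest 0.185, 0.307, 0.252 and 0.345. At an unadjusted p under 0.05 in edgeR, 0, 1, 0 and 1 were lower, against 1.81%, 2.82%, 2.77% and 2.56% of all genes tested. Polr1e stood at -0.71 (SE 0.23) in SGC-CBP30 against DMSO, and Polr2l at -1.06 (SE 0.49) in EnPGC-1 against DMSO. Ubtf, which opens the ribosomal RNA genes, had 277 and 199 CPM with EnPGC-1 and 232 and 196 CPM with SGC-CBP30, against 264 and 283 CPM with Ctrl PIP and 277 and 280 CPM with DMSO. Rrn3, which makes the polymerase competent to start, had 57.2 and 47.6 CPM with EnPGC-1 and 55.5 and 54.0 CPM with SGC-CBP30, against 54.9 and 65.9 CPM with Ctrl PIP and 63.9 and 56.5 CPM with DMSO. The Rrn3 libraries of all 4 groups overlapped with those of at least 1 other group.

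Myc had 97.8 and 85.9 CPM with EnPGC-1 and 71.1 and 62.9 CPM with SGC-CBP30, against 153 and 124 CPM with Ctrl PIP and 147 and 208 CPM with DMSO, and so lay below all 4 control libraries with both compounds. Its log2 fold changes were -0.95 (SE 0.24) and -1.40 (SE 0.24) against DMSO and -0.59 (SE 0.24) and -1.05 (SE 0.24) against Ctrl PIP for EnPGC-1 and for SGC-CBP30, and none passed an adjusted p of 0.05 in edgeR. Of the 8 genes of the MYC network, Myc included, 5, 4, 5 and 5 were below 0 in the 4 comparisons. The shares of all genes tested were 49.8%, 52.7%, 45.9% and 48.5%, and the medians of the 8 were -0.06, -0.02, -0.02 and -0.07. Of 10 tested p53 target genes of the nucleolar stress response, 6, 7, 4 and 5 were below 0, against 49.8%, 52.7%, 45.9% and 48.5% of all genes tested. Their medians were -0.28, -0.50, 0.08 and -0.20, with 0 called. At an unadjusted p under 0.05 in edgeR, 0, 2, 0 and 0 of the 10 were lower. The shares of all genes tested were 1.81%, 2.82%, 2.77% and 2.56%. In SGC-CBP30 against DMSO, Cdkn1a stood at -1.94 (-3.3 to -0.57) and Phlda3 at -1.38 (-2.69 to -0.08). Cdkn1a, which halts the cell cycle, had 6.78 and 12.9 CPM with EnPGC-1 and 4.88 and 3.86 CPM with SGC-CBP30, against 12.6 and 5.09 CPM with Ctrl PIP and 11.6 and 21.8 CPM with DMSO.

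The RNA that these genes process was not measured by this assay, which selects polyadenylated RNA. Counts assigned to Rn18s-rs5, an 18S ribosomal RNA locus, were 2310 and 9040 CPM with EnPGC-1 and 1870 and 2170 CPM with SGC-CBP30, against 2310 and 1800 CPM with Ctrl PIP and 1120 and 10100 CPM with DMSO. They were high in the second libraries of EnPGC-1 and DMSO, the libraries in which the short genes of the 40 were high, and they differed within these groups by more than between any groups.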

How the data were processed

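RNA was extracted with RNeasy columns and made into libraries with TruSeq Stranded mRNA, per the labels' protocols. The counts deposited by the authors are whole numbers for 45777 Entrez gene IDs, 1 column per library, with no pooling, and a second deposited table holds log2 values of 16442 genes under a name that gives them as rlog (regularized log2). HISAT2, StringTie, DESeq2 and mm10 are named, without versions or roles, per the submitters' processing notes. No source used here gives the program that made the counts or its strand setting, so overlapping, antisense and near-identical genes may share counts. The header names of the log2 table stand 1 field left of their values; all 8 columns correlated best with their own count column.

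Symbols came from the log2 table and RefSeq (99.8% of IDs matched). Counts were tested with edgeR 4.0.16 in R 4.3.3 (TMM, filterByExpr by group, robust glmQLFit and two-sided glmQLFTest, all 8 libraries, no covariates, 4 residual degrees of freedom, Benjamini-Hochberg over 16750 genes at 0.05). Intervals are 95% and cover the spread between libraries as that model estimates it. Transcript and coding lengths are of the shortest principal transcript of GENCODE M21 (92.1% of tested genes), which for Ncl is 8202 bases, so its length-adjusted values are uncertain. Alternatives were DESeq2 1.42.0 (Wald test, or its size factors in edgeR), no filter, a replicate block, the 4 libraries of a comparison, libraries left out, length and GC offsets (mgcv 1.9.3, 15420 genes) and limma 3.58.1 on the log2 values. The edgeR test was also run on simulated counts, for EnPGC-1 against DMSO over 8 libraries and for SGC-CBP30 against Ctrl PIP over 4. These counts were drawn gene by gene, without the trend with length, so that run cannot show how the tests behave under the trend.

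The members, the lists and the alternatives were chosen with earlier results of these data known. Genes named with values in each comparison were the 6 with the smallest p and the member of each role with the largest change in EnPGC-1 against DMSO; levels of all 40 are given. The count of genes with all 4 libraries below all 4 was added after seeing the data, as were its alternatives and the crossed block. Groups and replicate numbers came from the labels. There were 0 columns of other samples.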

Additional observations from a re-analysis of the deposited data

How the results depend on the processing

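With 2 libraries a group, of which those of DMSO and EnPGC-1 differ within the group, the number called depends on which libraries set the spread, while the medians of the 40 genes in the 4 comparisons of EnPGC-1 or SGC-CBP30 with DMSO or Ctrl PIP were below 0 under every alternative run. DESeq2's Wald test called 22 genes in EnPGC-1 against DMSO, 2 in Ctrl PIP against DMSO, 74 in SGC-CBP30 against DMSO, 49 in EnPGC-1 against Ctrl PIP, 43 in SGC-CBP30 against Ctrl PIP and 18 in EnPGC-1 against SGC-CBP30, with 0 of the 40 among them. The 4 libraries of SGC-CBP30 and Ctrl PIP alone gave 2470 genes, 33 of the 40 among them. Without replicate 1 of both EnPGC-1 and DMSO the genes called were 1095, 1, 6314, 41, 2256 and 1 in the same order of comparisons, with 32, 0, 33, 7, 33 and 0 of the 40 called and medians of -1.01 in EnPGC-1 against DMSO and -0.843 in EnPGC-1 against Ctrl PIP. Without replicate 2 of both they were 0, 2365, 15, 5183, 1866 and 883, with 0, 16, 0, 26, 32 and 0 of the 40, and medians of -0.18 in EnPGC-1 against DMSO, 0.498 in Ctrl PIP against DMSO, -0.294 in SGC-CBP30 against DMSO and 0.145 in EnPGC-1 against SGC-CBP30. These fits estimate the spread mostly from SGC-CBP30 and Ctrl PIP. On the deposited log2 values, which are shrunken, the median was -0.426 in EnPGC-1 against Ctrl PIP and -0.439 in SGC-CBP30 against Ctrl PIP, and with length and GC offsets it was 0.0698 in EnPGC-1 against SGC-CBP30.

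Leaving out 1 library at a time called 0 genes in every comparison. The median then ranged from -0.885 to -0.249 in EnPGC-1 against DMSO, from -0.225 to 0.491 in Ctrl PIP against DMSO, from -0.979 to -0.297 in SGC-CBP30 against DMSO, from -0.849 to -0.64 in EnPGC-1 against Ctrl PIP, from -0.79 to -0.684 in SGC-CBP30 against Ctrl PIP and from -0.02 to 0.138 in EnPGC-1 against SGC-CBP30. In Ctrl PIP against DMSO, Ftsj3 ranged from -0.0759 to 0.502, Bop1 from -0.0939 to 0.466 and Nolc1 from -0.0812 to 0.456, negative without DMSO replicate 1; without replicate 1 of both EnPGC-1 and DMSO they stood at -0.0928, -0.111 and -0.0981. In EnPGC-1 against SGC-CBP30, Wdr43 ranged from -0.0433 to 0.444, negative without EnPGC-1 replicate 1, and stood at -0.045 without replicate 1 of both EnPGC-1 and DMSO. The cause of these turns was not tested beyond the libraries named.

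The replicate block called 0 genes in all 6 comparisons, with medians of the 40 of -0.604, 0.0971, -0.695, -0.706, -0.728 and 0.00953. Same-numbered libraries deviated together over 9399 genes in EnPGC-1 and DMSO (r 0.815), in EnPGC-1 and SGC-CBP30 (r 0.426) and in SGC-CBP30 and DMSO (r 0.412), but oppositely in EnPGC-1 and Ctrl PIP (r -0.591), in Ctrl PIP and DMSO (r -0.56) and in Ctrl PIP and SGC-CBP30 (r -0.158), and nothing in the labels ties the numbers, so the pairing was not used. With the numbers of Ctrl PIP crossed in the block, run for the 3 comparisons with Ctrl PIP, 0 genes were called. In the deposited counts the columns of EnPGC-1 and DMSO alternate by number, which does not state a pairing. A block within EnPGC-1 and DMSO alone was not fitted, so a pairing of these groups was not tested. No scaling moved the median of all genes by over 0.1.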
